A study of Chlorocebus sabaeus with 10 samples.

Results

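Hepatokines are proteins that the liver secretes into the blood and that act on other organs. Liver transcripts of 9 hepatokine genes with known actions on energy metabolism were compared between vervet monkeys (Chlorocebus sabaeus) fed a high fructose (HFr) or a chow diet: FGF21, GDF15, ANGPTL4, ANGPTL6, INHBE, INHBC, FST, FETUB and LECT2. The genes were chosen by symbol among the 23352 gene symbols of the count table. Each had 1 annotated transcript, and 8 of the 9 passed the filter on low counts along with 7948 of 28078 transcripts in all. The exception was INHBC.

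The study asked how a high fructose diet alters the liver, with 5 female animals on the HFr diet and 5 on chow for 6 weeks, after a period in which all 10 ate chow. The paper states that age and body weight were balanced when animals were assigned to a diet, and the labels name no treatment other than diet. Its measures give a higher mean age in HFr than in chow, a difference that did not pass the paper's test. RNA was extracted from flash-frozen liver, and polyadenylated RNA was sequenced, 1 library per animal. Each animal is named here by its diet and the replicate number of its label, and the same number in both diets marks no pair.

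Several of these proteins report on the nutritional and stress state of the liver. Fibroblast growth factor 21 (FGF21) is made in fasting, protein shortage and sugar intake and acts through FGF receptors with the co-receptor beta-klotho (KLB), and growth differentiation factor 15 (GDF15) is induced by cell stress and lowers food intake through GFRAL and RET in the hindbrain. ANGPTL4 inhibits lipoprotein lipase, while the activin subunits encoded by INHBE and INHBC, and follistatin (FST) that binds activins, connect the liver with adipose tissue and muscle.

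No tested hepatokine passed the test for a difference between the diets. In edgeR's quasi-likelihood test, 0 of 8 had an unadjusted p under 0.05, the threshold of the study, where 4.29% of all tested transcripts did (341 of 7948, of which 164 were higher and 177 lower in HFr). Limma also gave 0 of 8, and DESeq2 gave 0 of the 7 for which it returned a p (all but FGF21). The adjusted p (Benjamini-Hochberg over all tested transcripts, edgeR) was 0.9996 for each of the 8, and the lowest among all transcripts was 0.872. In 3 of the 8 the log2 fold change was above 0 and in 5 below, from -1.34 for GDF15 to 0.53 for ANGPTL4, with a median of -0.08. The median over all tested transcripts was -0.0007. No hepatokine separated the diet groups, as the ranges overlapped in all 9, and exact two-sided permutation tests of the group means gave p between 0.159 and 0.897. Among all tested transcripts 0.541% did not overlap.

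**Figure D1:**
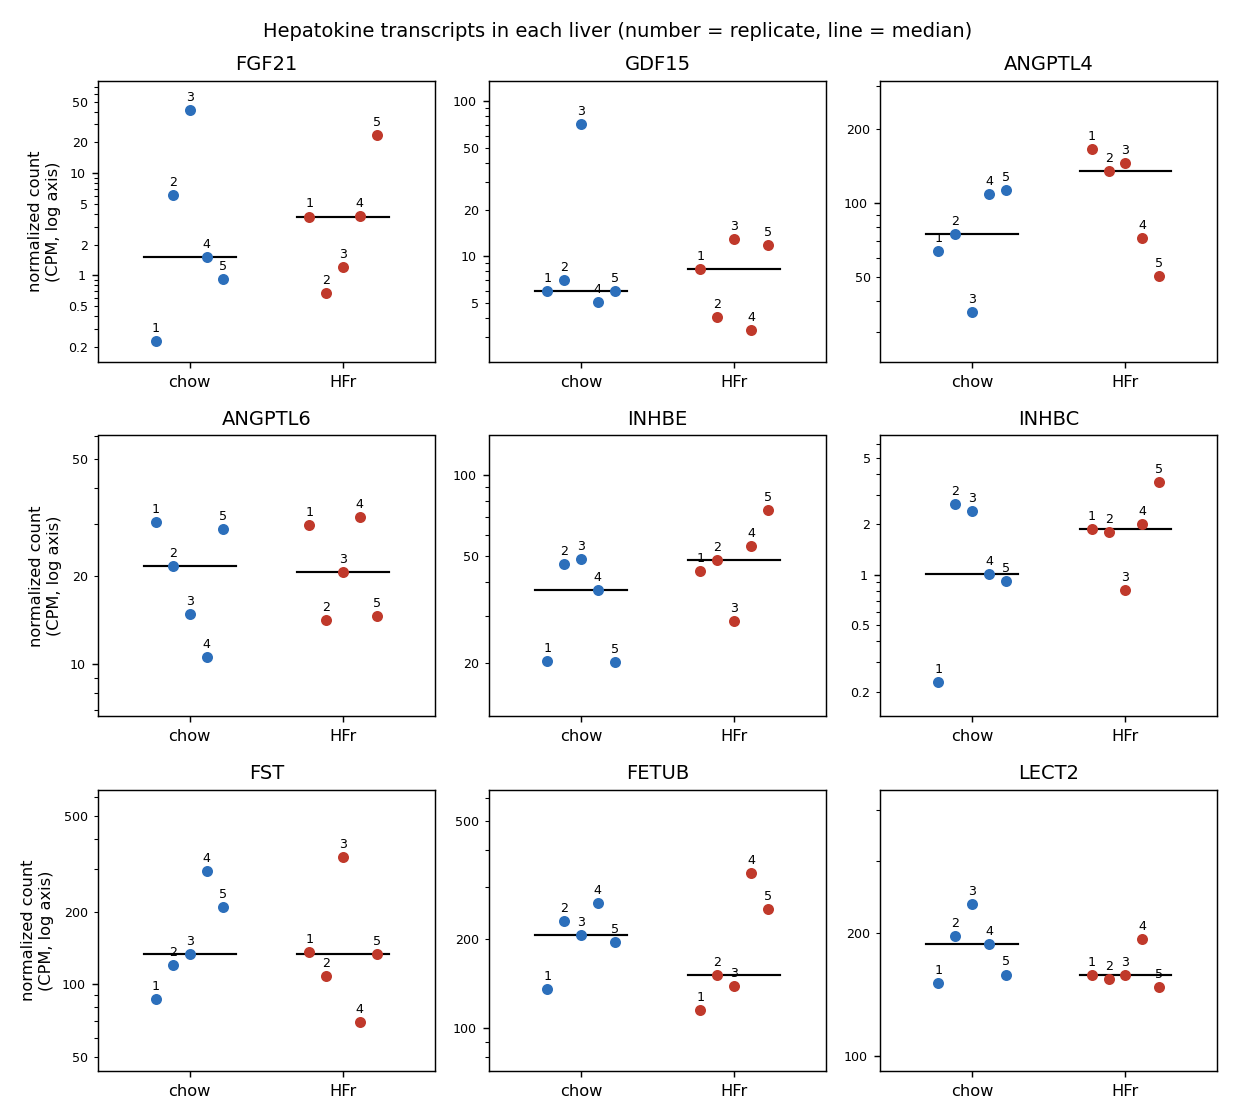
Normalized count (CPM after TMM scaling, log axis) of each hepatokine in each of the 10 livers, with chow in blue and HFr in red, the replicate number above each point and a line at the group median. FGF21 and GDF15 peak in chow animal 3, at 41.8 and 71.2, while LECT2 stays between 147 and 236.

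The libraries held between 2977282 and 4992505 counts. Mitochondrial transcripts took 34.7% to 73.6% of them, which left from 864571 to 2657103 nuclear counts. The summed level of 10 hepatocyte markers, all of them tested, lay between 47626 and 73666 normalized counts in HFr and between 38641 and 77887 in chow (exact permutation test, two-sided, p = 0.937). In bulk liver, fewer cells of a type and less RNA per cell cannot be told apart. Values below are normalized counts, the counts of a transcript relative to its library's total on the CPM scale after adjustment of that total by TMM, and they compare animals for a gene, not genes with each other, because transcripts differ in length.

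FGF21, the liver's endocrine fibroblast growth factor, varied widely between animals on both diets. The gene lies on chromosome 6 at 42006064-42008737 (ChlSab1.1, plus strand). Its level was 3.77, 0.673, 1.21, 3.78 and 23.3 in HFr animals 1 to 5 and 0.229, 6.13, 41.8, 1.52 and 0.919 in chow animals 1 to 5. Chow animal 3 stood at 15.8 times the median of all 10 and HFr animal 5 at 8.84 times, while chow animal 1 held 1 count. Means were 6.55 ± 9.49 (SD, n = 5) in HFr and 10.1 ± 17.9 (SD, n = 5) in chow, whereas the medians had the opposite order, 3.77 in HFr and 1.52 in chow. The log2 fold change (HFr over chow) was -0.66 ± 1.0 (SE), with a 95% interval of -2.80 to 1.48 and an edgeR p of 0.517, and the exact two-sided permutation test of the means gave p = 0.754. Each of the top animals set the result: the log2 fold change was 1.5 (edgeR p of 0.1365) without chow animal 3 and -2.21 (edgeR p of 0.0639) without HFr animal 5. Counts were low, between 1 and 228 per library, and the coefficient of variation over the 10 animals, 163%, exceeded that of 99.9% of tested transcripts, whose median was 27.1%.

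The livers with the highest FGF21 levels were also at the end of the range in some cell type markers and in depth. Chow animal 3 had the highest hepatocyte marker sum, 77887, HFr animal 5 the next, 73666, and chow animal 2, the third in FGF21, the third, 65796. The summed level of 10 stellate cell and fibroblast markers was 220, 260 and 274 in these livers in the same order, where the other HFr animals ranged from 364 to 494 and the other chow animals from 352 to 921. LRAT, a defining stellate cell gene, was at 0 in every library. Such sums follow their most abundant transcripts. Of the 10 hepatocyte markers taken singly, 3 were highest in chow animal 3 and 3 in HFr animal 5. Nuclear counts too were highest in chow animal 3 (2657103), HFr animal 5 (2380744) and chow animal 2 (2022640). The part of cell composition and depth in the FGF21 values was not tested. With the mitochondrial percentage of each library as a covariate the log2 fold change of FGF21 was -0.16 (edgeR p of 0.870).

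GDF15, a stress-induced member of the transforming growth factor beta family, was low in 9 livers and high in 1. It lies on chromosome 6 at 16852971-16861965 (plus strand). Levels were 8.29, 4.04, 12.9, 3.33 and 11.9 in HFr animals 1 to 5 and 5.94, 7.01, 71.2, 5.05 and 5.97 in chow animals 1 to 5. Chow animal 3, also the highest in FGF21, reached 10.96 times the median of all animals. The other 4 chow livers lay within the range of the HFr group, which itself fell on both sides of them. Means were 8.09 ± 4.38 (SD, n = 5) in HFr and 19.03 ± 29.1 (SD, n = 5) in chow, and no HFr animal reached the chow mean. The log2 fold change was -1.34 ± 0.72 (SE; 95% interval -2.88 to 0.20; edgeR p of 0.0830), against -0.44 in limma (pseudocount 1). Without chow animal 3 it was 0.39 (edgeR p of 0.346), so the lower mean in HFr rested on this animal. Conversely, without chow animal 1 or chow animal 2 it was -1.57 or -1.56, with an edgeR p of 0.0473 or 0.0485. The median was in fact higher in HFr (8.29) than in chow (5.97). A permutation test of the means gave p = 0.81 (exact, two-sided).

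Of 18 genes of the integrated stress response, through which GDF15 and FGF21 are known to be induced, 13 were tested, 7 higher and 6 lower in HFr, and 0 passed p under 0.05 in edgeR against 4.29% of all transcripts. Their median log2 fold change was 0.04. Chow animal 3 was the highest animal for 1 of the 13 and HFr animal 5 for 2, where they were highest for 10.8% and 7.85% of all tested transcripts. ATF3, an early stress factor that failed the filter, had 34 of the 42 counts of the chow group in chow animal 3 and 9 counts in the HFr group, a gene named after its values were seen. The smallest p among the 13 belonged to VLDLR, a lipoprotein receptor (log2 fold change -0.66 ± 0.33 SE, edgeR p of 0.0661), and PPP1R15A, a phosphatase subunit that ends the response (-0.47 ± 0.31 SE, edgeR p of 0.152).

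ANGPTL4, an inhibitor of lipoprotein lipase whose liver expression follows fasting and fatty acids, was highest in 3 HFr livers. The gene lies on chromosome 6 at 7719400-7729303 (plus strand). Its level was 166, 136, 146, 72.2 and 50.4 in HFr animals 1 to 5 and 64.2, 75.1, 36.1, 109 and 113 in chow animals 1 to 5. HFr animals 1 to 3 exceeded every chow animal, but HFr animals 4 and 5 fell within the chow range. Means were 114 ± 50.01 (SD, n = 5) in HFr and 79.5 ± 32.2 (SD, n = 5) in chow. The log2 fold change was 0.53 ± 0.35 (SE), with a 95% interval of -0.22 to 1.28 and an edgeR p of 0.155 (exact permutation p = 0.214). It was above 0 whichever animal was left out, from 0.34 without chow animal 3 to 0.72 without HFr animal 5, and only the latter had an edgeR p under 0.05 (0.0456). The animals at the bottom, chow 3 and HFr 5, were those with the highest FGF21.

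ANGPTL4 is usually counted among the fasting and fatty acid responsive genes. Of 15 further such genes 13 were tested, and all 13 had a log2 fold change above 0, with a median of 0.70 (0.42 without chow animal 1). In 5 of them the edgeR p was under 0.05, against 2.06% of all transcripts that passed in this direction. They included PNPLA2, the adipose triglyceride lipase (0.72 ± 0.18 SE), FABP1, the liver fatty acid binding protein (1.2 ± 0.34 SE), PDK4, a kinase that restrains pyruvate oxidation (0.75 ± 0.26 SE), and SLC25A20, the carnitine carrier (0.46 ± 0.19 SE). SLC25A20 lost the call without HFr animal 2 or 3 or chow animal 1, 2 or 5, with a log2 fold change between 0.35 and 0.44. The adjusted p of PNPLA2 was 0.994 (edgeR). The list was drawn up with earlier results of these animals known, and some of its genes had already been seen to move, so its count is no independent evidence of a direction.

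ANGPTL6, the angiopoietin-related growth factor, had nearly the same mean in both diets. It lies on chromosome 6 at 9160144-9164610 (minus strand). Levels were 29.8, 14.1, 20.6, 31.8 and 14.6 in HFr animals 1 to 5 and 30.6, 21.7, 14.9, 10.6 and 29.0 in chow animals 1 to 5. Low and high livers occurred on both diets. Means were 22.2 ± 8.27 (SD, n = 5) and 21.3 ± 8.68 (SD, n = 5), and the log2 fold change was 0.04 ± 0.31 (SE), with a 95% interval of -0.62 to 0.70. The gene shares 3728 of its 4466 bases with C19orf66 on the opposite strand, which had a mean count of 559 per library. The library kit keeps the strand, but the strand setting of the counting was not given in the sources used here, so reads of the partner among those of ANGPTL6 cannot be told apart.

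**Figure D2:**
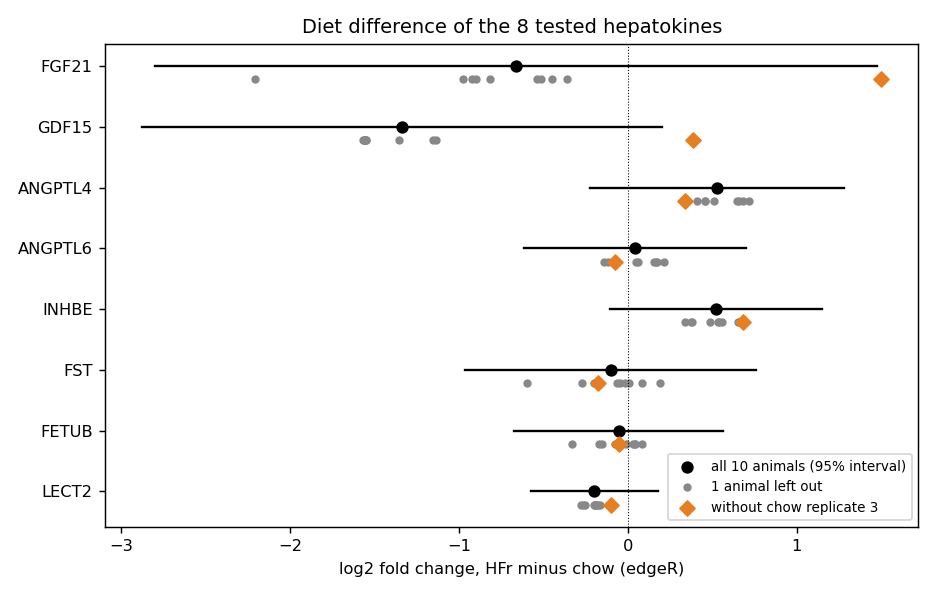
Log2 fold change (HFr over chow, edgeR) of the 8 tested hepatokines, with the 95% interval from all 10 animals as a line, each fit without 1 animal as a grey point and the fit without chow animal 3 as an orange diamond. All 8 intervals span 0, and leaving out chow animal 3 moves FGF21 from -0.66 to 1.5 and GDF15 from -1.34 to 0.39.

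INHBE, the subunit of activin E, was higher in HFr on average, with overlap. The gene lies on chromosome 11 at 53367423-53370323 (plus strand). Its level was 44.1, 48.4, 28.6, 54.4 and 73.8 in HFr animals 1 to 5 and 20.3, 46.6, 48.8, 37.4 and 20.2 in chow animals 1 to 5. HFr animals 4 and 5 were above every chow animal and chow animals 1 and 5 below every HFr animal, with the remaining 6 intermixed. Means were 49.9 ± 16.4 (SD, n = 5) in HFr and 34.7 ± 13.8 (SD, n = 5) in chow, and 4 HFr animals lay above the chow mean. The log2 fold change was 0.52 ± 0.29 (SE; 95% interval -0.10 to 1.15; edgeR p of 0.0955; exact permutation p = 0.159). Leaving out 1 animal gave 0.34 to 0.68, with an edgeR p under 0.05 without HFr animal 3 (0.0387) or without chow animal 3 (0.0431). The same held with the mitochondrial percentage as a covariate (0.55, edgeR p of 0.0483).

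INHBC, the subunit of activin C, is the upstream neighbour of INHBE, 5153 bases away on the same strand (chromosome 11, 53348742-53362270). It was detected in every liver but with few reads, 5, 8, 2, 9 and 18 counts in HFr animals 1 to 5 and 1, 12, 13, 2 and 2 in chow animals 1 to 5. The sums were 42 and 30 counts. HFr animal 5 was highest and chow animal 1 lowest, and the other livers of both diets overlapped. Fitted without the filter on low counts, the log2 fold change was 0.44 ± 0.54 (SE, edgeR p of 0.419), and it moved between 0.125 without HFr animal 5, 0.145 without chow animal 1 and 0.775 without chow animal 2. Each library had 1.12 to 5.63 INHBC counts per 100 INHBE counts, and all libraries together had 4.22, a ratio of read counts and not of molecules.

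FST encodes follistatin, which binds and neutralizes activins, and lies on chromosome 4 at 49773980-49780334 (plus strand). Levels were 136, 108, 337, 69.8 and 134 in HFr animals 1 to 5 and 86.4, 120, 134, 295 and 208 in chow animals 1 to 5. Both the highest and the lowest liver were in the HFr group, and HFr animal 3 and chow animal 4 led their groups. Means were 157 ± 104 (SD, n = 5) in HFr and 169 ± 83.4 (SD, n = 5) in chow, with a log2 fold change of -0.10 ± 0.40 (SE; 95% interval -0.96 to 0.76). HFr animal 3, the highest in FST, was the lowest HFr animal in INHBE.

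FETUB encodes fetuin-B, a liver protease inhibitor of the cystatin superfamily, and lies on chromosome 15 at 2770927-2790249 (minus strand), beside its relatives HRG and AHSG. Levels were 115, 151, 139, 335 and 253 in HFr animals 1 to 5 and 136, 230, 207, 264 and 195 in chow animals 1 to 5. The HFr livers split into 3 low and 2 high ones, and all chow livers lay between the HFr extremes. Means were 198 ± 92.7 (SD, n = 5) and 206 ± 47.1 (SD, n = 5). The log2 fold change was -0.05 ± 0.29 (SE; 95% interval -0.67 to 0.57). AHSG, which encodes fetuin-A, another hepatokine, also did not pass the test (0.22 ± 0.23 SE, edgeR p of 0.366).

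LECT2, leukocyte cell-derived chemotaxin 2, a secreted hepatocyte protein, was the steadiest hepatokine of the 9. It lies on chromosome 23 at 38696203-38705088 (minus strand). Levels were 158, 155, 158, 193 and 147 in HFr animals 1 to 5 and 151, 197, 236, 188 and 159 in chow animals 1 to 5. In HFr 4 of 5 livers lay between 147 and 158, and chow livers spread upward from the same range. Means were 162 ± 17.9 (SD, n = 5) in HFr and 186 ± 33.9 (SD, n = 5) in chow, with a log2 fold change of -0.20 ± 0.18 (SE; 95% interval -0.58 to 0.18; edgeR p of 0.278; exact permutation p = 0.23). Without chow animal 3 it was -0.0994. The coefficient of variation over the 10 animals was 16.3%, and 10.5% of tested transcripts had a lower one.

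The receptors and partners of these hepatokines mostly did not pass the test or were barely detected in liver. Of 21 such genes 10 were tested, 3 higher and 7 lower in HFr, with a median log2 fold change of -0.10. KLB, the co-receptor that FGF21 needs, had 5 counts in the HFr and 6 in the chow group, while the 4 FGF receptors were tested, with log2 fold changes between -0.29 (FGFR1) and 0.25 (FGFR3). GFRAL, the GDF15 receptor, had 1 count in HFr and 0 in chow, and the activin receptors ACVR2A, ACVR2B and ACVR1C failed the filter, which left ACVR1B (-0.05 ± 0.20 SE). MET, the hepatocyte growth factor receptor that LECT2 also binds, was the 1 listed gene with an edgeR p under 0.05 (0.00197), against 2.23% of all transcripts that passed in this direction. Its level was 34.3, 23.3, 27.8, 48.4 and 33.0 in HFr animals 1 to 5 and 57.6, 57.8, 55.4, 49.5 and 55.6 in chow animals 1 to 5, so that all HFr livers lay below all chow livers (log2 fold change -0.72 ± 0.19 SE). Among all tested transcripts 0.541% did not overlap, and the adjusted p of MET was 0.9996 (edgeR). TIE1, another LECT2 receptor, had a log2 fold change of 0.33 ± 0.22 (SE, edgeR p of 0.163).

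Among 30 relatives of the same ligand families 11 were tested, 6 higher and 5 lower in HFr, with a median of 0.08. INHBB, the subunit of activin B, was the 1 with an edgeR p under 0.05, against 2.06% of all transcripts that passed in this direction. Its log2 fold change was 1.1 ± 0.50 (SE), with an edgeR p of 0.0440 and an adjusted p of 0.9996. Its level was 42.6, 51.8, 14.5, 7.78 and 18.8 in HFr animals 1 to 5 and 4.34, 7.45, 16.9, 15.2 and 21.1 in chow animals 1 to 5. HFr animals 1 and 2 were above all others while the remaining HFr livers lay within the chow range, and a permutation test of the means gave p = 0.198 (exact, two-sided). The call was lost without HFr animal 1 (log2 fold change 0.88), HFr animal 2 (0.71), chow animal 1 (0.86), chow animal 2 (0.94) or chow animal 4 (1.15), in limma, with the mitochondrial percentage as a covariate (edgeR p of 0.0544) and with the replicate number as a block (0.93, edgeR p of 0.157). INHBA, the subunit of activin A, had a log2 fold change of 0.08 ± 0.59 (SE). ANGPTL8, which acts on lipoprotein lipase and rises with feeding, was 3.39, 2.92, 8.07, 28.9 and 55.4 in HFr animals 1 to 5 and 6.40, 49.7, 51.5, 9.10 and 3.68 in chow animals 1 to 5. The 3 livers highest in ANGPTL8 were also the 3 highest in FGF21, a match noticed after the values were seen and given as a description. Next after them, HFr animal 4 (3.78) and HFr animal 1 (3.77) were level in FGF21, whereas HFr animal 1 was low in ANGPTL8.

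**Figure D3:**
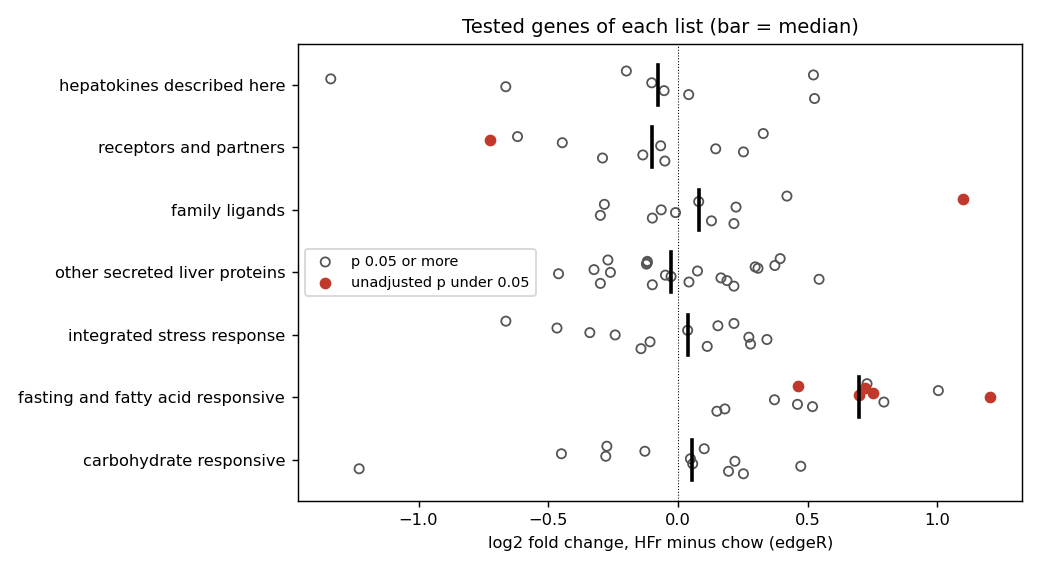
Log2 fold change (HFr over chow, edgeR) of every tested gene in the hepatokine set and in 6 related lists, with filled points for an unadjusted p under 0.05 and a bar at the list median. The hepatokines spread on both sides of 0 around a median of -0.08, and all 13 tested fasting and fatty acid responsive genes lie above 0. The latter list was drawn up with earlier results of these animals known, so its count is no independent evidence of a direction.

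Further secreted liver proteins with endocrine or metabolic action did not pass the test either. Of 24 such genes 21 were tested, 10 higher and 11 lower in HFr. Among them 0 passed p under 0.05 in edgeR, against 4.29% of all transcripts. The smallest p belonged to GPNMB, a membrane glycoprotein shed into the blood (0.54 ± 0.33 SE, edgeR p of 0.119), and MANF, an endoplasmic reticulum stress factor (0.31 ± 0.22 SE, edgeR p of 0.176). Of 18 carbohydrate-responsive genes, a response to which FGF21 is also known to belong, 12 were tested, 7 higher and 5 lower. Their median was 0.05, and again 0 passed, against the same 4.29%. SLC2A2, the liver glucose transporter, had the smallest p (-0.45 ± 0.21 SE, edgeR p of 0.0525), followed by FASN, the fatty acid synthase (-1.23 ± 0.83 SE, edgeR p of 0.159), whose level in chow animal 2 was 421. With 1 animal left out, the log2 fold change of FASN was -0.18 without chow animal 2 and -2.01 without HFr animal 4 (edgeR p of 0.0345).

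Whether hepatokines varied together between animals was examined in the 28 pairs of the 8 tested genes, as log2(normalized count + 1). Correlations ranged from -0.71 to 0.74, 12 were positive, and 0 of 28 had an adjusted p under 0.05 by Pearson's r or Spearman's rho. FGF21 and GDF15 had the highest r, 0.737 (permutation p = 0.0156, adjusted 0.241), with a rho of 0.491 (permutation p = 0.156, adjusted 0.490). Without chow 3 and HFr 5, the animals farthest from the FGF21 median, r was 0.0336, so the relation rested on these animals. FGF21 and ANGPTL4 had an r of -0.707 (permutation p = 0.0204, adjusted 0.241) and a rho of -0.491 (permutation p = 0.155, adjusted 0.490). This relation too rested on the same animals, with an r of -0.0717 without them. With the mitochondrial percentage of the libraries, ANGPTL4 had an r of 0.502 and a rho of 0.333. FGF21 went the other way (r = -0.528, rho = -0.309), and the part of this in their relation was not tested.

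The relation of FGF21 and INHBE rested less on these animals. Its r was 0.700 (permutation p = 0.0258, adjusted 0.241) and its rho 0.721 (permutation p = 0.0230, adjusted 0.490). Without chow 3 and HFr 5 the r was 0.691, and with the mean of each diet subtracted it was 0.794. HFr animal 5 led both diets in INHBE while chow animal 3 led in FGF21, and chow animals 1 and 5 were low in both genes, but HFr animal 2, at 0.673 in FGF21, had an INHBE level of 48.4. Both genes tended to be lower where mitochondrial transcripts took more of the library (r = -0.528 and rho = -0.309 for FGF21, r = -0.546 and rho = -0.515 for INHBE, over the 10 animals and given as a description), and the part of this in their relation was not tested. Neither the r nor the rho of FGF21 and INHBE passed the correction over 28 pairs. INHBE was not alone in this: FGF21 and LECT2 had an r of 0.533 (permutation p = 0.1145, adjusted 0.4478), and of 0.729 without chow 3 and HFr 5.

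**Figure D4:**
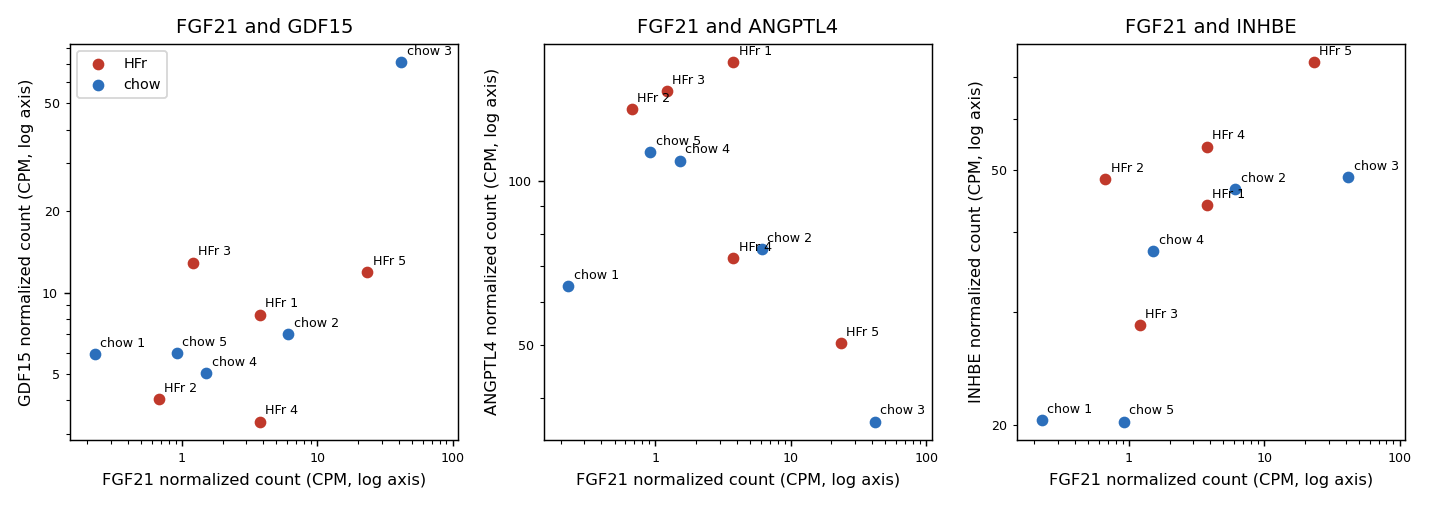
Normalized counts (CPM, log axes) of GDF15, ANGPTL4 and INHBE against FGF21 in the 10 livers, HFr in red and chow in blue. GDF15 is high only in chow animal 3 and ANGPTL4 is lowest in chow 3 and HFr 5. For INHBE the r with FGF21 was 0.700 over all 10 animals (adjusted permutation p of 0.241) and 0.691 without chow 3 and HFr 5.

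The transcripts whose levels over the 10 livers were most like each hepatokine were taken from 7170 other tested transcripts with a symbol. The r values describe likeness only, since all points share their library and scaling. They are also the highest of 7170 over 10 animals, and such a choice alone can give high values among unrelated transcripts. How high was not tested, so the r values are no evidence of a link between genes. Whether those of GDF15 rested on its highest liver was not tested either. METTL7B (r = 0.938), LRG1 (0.923) and RGS3 (0.920) were nearest to FGF21. PNRC1 (0.940), NFU1 (0.934) and DHODH (0.924) were nearest to GDF15. EHD3 (0.883), GRK4 (0.874) and TM2D3 (0.869) came closest to ANGPTL4. The nearest to ANGPTL6 were GAS8 (0.935), ADCY3 (0.916) and BMP5 (0.887). For the activin axis, SHROOM1 (0.931), ANXA6 (0.929) and GPX1 (0.919) were nearest to INHBE, and NHLRC3 (0.924), MX2 (0.923) and CCNC (0.913) to FST. FETUB was nearest to CYP27A1 (0.910), a bile acid synthesis enzyme, MRPL10 (0.904) and FBXO27 (0.893), and LECT2 to MRPL38 (0.889), MAP2K3 (0.887) and MBP (0.872). No hepatokine was among the nearest transcripts of another.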

How the data were processed

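RNA-Seq of 10 livers (5 HFr, 5 chow) was analysed from 2 tables. The authors extracted total RNA, made Illumina TruSeq stranded mRNA libraries, and aligned reads to ChlSab1.1 with Ensembl annotation; the submitters' processing notes name CASAVA 1.8, FastQC, STAR 2.5.3a and Partek. The deposited estimated counts per transcript come from the authors' expectation-maximization quantification in Partek Flow (96.0% of values were whole). The deposited normalized signal values were the authors' TMM-scaled counts; they stood in a constant ratio to the estimated counts within each library (within 0.00147% of it) and served only as a check.

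Estimated counts were rounded and fitted in edgeR 4.0.16 (R 4.3.3) with TMM, filterByExpr (minimum count 10, minimum total 15) and the quasi-likelihood test, diet being the only term; SE is the log2 fold change over the square root of F. Means were compared by exact two-sided permutation over 252 assignments (smallest p = 0.00794), and pairs of genes with 100000 resamples. The count test takes the place of the equal-variance test that the study ran on normalized values. Alternatives were DESeq2 1.42.0, limma 3.58.1 (pseudocounts of 1 and 0.1), other scalings and filters, counts summed by gene, mitochondrial handling, the replicate number as a block, and each animal left out. Named genes were the 9 hepatokines, the genes of each list with p under 0.05 or otherwise those with the 2 smallest p, and the 3 nearest transcripts of each hepatokine; genes outside this rule are named where a count turns on them, and a gene that the rule names is not reported here. The members and lists were chosen with earlier results of these data known. The p-values of the diet comparison set the difference between diets against the spread between animals. Those of the gene pairs concern association over the same animals. In simulated counts for this comparison over 7948 transcripts, 83% of those changed by a log2 of 1 and 100% of those changed by 2 had p under 0.05, and 4.79% of unchanged ones did. At an adjusted p under 0.05 the shares of changed ones were 45% and 94%. The changed transcripts were drawn at random from all tested ones. These shares therefore do not stand for FGF21 or GDF15, whose log2 fold changes had an SE of 1.0 and 0.72. Nor need they hold for FST, ANGPTL4, INHBE, ANGPTL6 and FETUB. The coefficients of variation of these genes exceeded those of 93.2%, 86.4%, 77.9%, 74.4% and 69.6% of tested transcripts, in that order.

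The marker lists of macrophages, lymphocytes, endothelial cells, cholangiocytes and red blood cells were also summed: their permutation p-values between diets (exact, two-sided) were 0.794, 0.595, 0.0794, 0.444 and 0.468, and that of stellate cells and fibroblasts 0.5.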

Additional observations from a re-analysis of the deposited data

Results flagged for a closer look

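In 44 groups of 5 animals (22 genes on each diet), 6 had a highest animal whose gap to the next, as a share of the group's range, exceeded Dixon's critical value of 0.71. Chance flags about 1 in 20 groups, 5%, where values are normally distributed. The levels were taken without a log and all 6 flags were at the high end, so the count cannot be set against that share. FGF21 had such an animal on both diets, HFr animal 5 at 23.3 (others 0.673 to 3.78) and chow animal 3 at 41.8 (others 0.229 to 6.13). GDF15 in chow animal 3, at 71.2, had the widest gap, 0.97 of the range, with the others between 5.05 and 7.01. FST in HFr animal 3 was 337 (others 69.8 to 136). LECT2 in HFr animal 4 was 193 (others 147 to 158), still within the chow range. FASN in chow animal 2 was 421 (others 11.9 to 122).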

How the results depend on the processing

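The count of transcripts with p under 0.05, 341, was 123 with library size scaling only and 756 with no filter on low counts (of 16066 tested), and 260 (without HFr animal 2) to 408 with 1 animal left out. The count of hepatokines with p under 0.05, 0, was 1 with library size scaling only (GDF15), 1 with no filter (GDF15) and 1 with the mitochondrial percentage as a covariate (INHBE), and 0 to 1 with 1 animal left out (INHBE without HFr 3 or chow 3, ANGPTL4 without HFr 5, GDF15 without chow 1 or chow 2). The log2 fold change of FGF21 turned to 0.0358 and 0.27 in limma with pseudocounts of 1 and 0.1, and that of ANGPTL6 to -0.0771 with library size only (mean difference -1.23) and -0.00306 with the covariate. With chow 3 and HFr 5 both left out, a setting chosen after seeing the data, GDF15 turned to 0.17 (mean difference 1.1). With 1 animal left out, log2 fold changes ran from -0.14 to 0.21 for ANGPTL6, -0.33 to 0.0811 for FETUB, -2.21 to 1.5 for FGF21, -0.60 to 0.19 for FST and -1.57 to 0.39 for GDF15, and mean differences (HFr minus chow) from -2.05 to 3.07, -43.4 to 11.8, -7.60 to 4.27, -59.5 to 20.4 and -15.4 to 2.05. Of the lists, the median of the fasting and fatty acid responsive genes was 0.42 without chow 1 and that of lymphocyte markers 0.44 with no filter. INHBB passed p under 0.05 in 14 of 23 alternatives and SLC25A20 in 17, while PDK4 (0.74) lost it with library size only. GDF15 was -0.44 and -0.47 in limma, and LECT2 ran from -0.28 to -0.0994 with 1 animal left out. SLC2A2 and VLDLR each had p under 0.05 in 5 of 23 alternatives, FASN and GPNMB in 2. The causes were not tested.

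Replicate numbers did not pair the animals (correlations of same-numbered animals from -0.29 to 0.10, 0 of 5 matched best with their own number). With the replicate block 271 transcripts and 0 hepatokines had p under 0.05, and the log2 fold changes of FGF21 and GDF15 were -0.13 and -0.56. FGF21 got no p from DESeq2 and is absent from 2 settings, that of at least 10 counts in every animal and that without chow 3 and HFr 5.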
